A study of Mus musculus with 3 samples.

Results

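The 47 genes described here encode the machinery of DNA replication and mitosis and its control, and were taken by symbol from a named list out of 55536 genes in the deposited tables. All 47 symbols were found. By role they fall into 14 genes of the replication fork and of origin licensing, 4 of nucleotide supply, 11 of G1/S control, 3 cell cycle inhibitors and 15 of G2 and mitosis (G2/M). The first 14 and the 4 nucleotide genes are called the replication members below. RNA came from the cytosolic fraction of primary macrophages differentiated in culture from bone marrow. The mice were of the C57BL/6J strain. Macrophages had been pretreated for 12 h with 100 ng/ml Lipid A, the membrane-anchoring moiety of bacterial lipopolysaccharide that is a ligand of Toll-like receptor 4. They were then kept without it for 12 h and restimulated at the same dose for 10 min before harvest. This single group was sequenced as 3 libraries, given as biological replicates 1, 2 and 3 that share a donor identifier. The labels do not say whether they came from separate animals, so the p-values below measure only the spread between these libraries. The libraries held 31968675, 53094481 and 57070432 expected counts in genes for replicates 1, 2 and 3. No other treatment, time or cell fraction was analysed here, so every value is a level in restimulated cells and none is a response.

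Cells that enter division switch on genes in waves. In G1, D-type cyclins with Cdk4 and Cdk6 and then E-type cyclins with Cdk2 phosphorylate the retinoblastoma protein, which frees E2F factors to activate genes of DNA synthesis. Genes of the G2/M wave are activated later by the MuvB complex with B-Myb and FoxM1, and in resting cells the DREAM complex holds both waves down. Inhibitors such as p21, the product of Cdkn1a, block the cyclin-dependent kinases. Macrophages grown from bone marrow proliferate in response to CSF-1, and Toll-like receptor ligands are known to halt this proliferation.

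Promoter sequences from RefSeq on GRCm38.p6, a release of the assembly that mm10 names, were matched by symbol for 38 of the 47 genes, from 250 bases before to 50 after each start. Mcm4, Gins2, Ccne2, Ccnd1, Ccnd2, Rb1, Ccna2, Aurkb and Tpx2 had no entry. The promoters of Pcna and Mcm6 are shown as the most abundant replication genes, Cdk1 as the most abundant G2/M gene with an entry, and Cdkn1a as the most abundant inhibitor. Each is written 5′ to 3′ on the gene's strand. Capitals mark 3 kinds of word, searched on both strands: the E2F-type words TTTGGCGC, TTTCCCGC, TTTGCCGC and TTTCGCGC, the cell cycle homology region (CHR) words TTTGAA and TTCGAA, and CCAAT. A word on the opposite strand appears as its reverse complement, and in Mcm6 2 E2F-type words on opposite strands overlap.
Pcna promoter (chr2:132253131-132253430, minus strand): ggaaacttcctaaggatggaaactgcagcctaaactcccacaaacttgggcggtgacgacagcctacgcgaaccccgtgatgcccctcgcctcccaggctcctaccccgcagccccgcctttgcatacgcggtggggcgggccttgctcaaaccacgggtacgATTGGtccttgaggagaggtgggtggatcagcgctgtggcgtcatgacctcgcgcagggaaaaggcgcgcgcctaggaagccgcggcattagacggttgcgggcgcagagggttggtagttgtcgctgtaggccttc
Mcm6 promoter (chr1:128359656-128359955, minus strand): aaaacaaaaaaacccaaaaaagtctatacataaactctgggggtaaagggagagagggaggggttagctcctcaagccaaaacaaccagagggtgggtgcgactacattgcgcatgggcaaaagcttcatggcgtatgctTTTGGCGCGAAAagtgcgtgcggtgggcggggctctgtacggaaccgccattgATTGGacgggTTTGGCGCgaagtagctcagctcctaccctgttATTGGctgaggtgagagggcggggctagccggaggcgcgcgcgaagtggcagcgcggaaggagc
Cdk1 promoter (chr10:69352863-69353162, minus strand): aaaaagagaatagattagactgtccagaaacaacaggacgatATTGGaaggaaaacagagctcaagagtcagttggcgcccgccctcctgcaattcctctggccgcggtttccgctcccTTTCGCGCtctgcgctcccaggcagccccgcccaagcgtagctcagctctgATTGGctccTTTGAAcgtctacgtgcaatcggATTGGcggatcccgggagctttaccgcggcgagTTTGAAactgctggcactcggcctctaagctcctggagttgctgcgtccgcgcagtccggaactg
Cdkn1a promoter (chr17:29093519-29093818, plus strand, at the start of its leading transcript): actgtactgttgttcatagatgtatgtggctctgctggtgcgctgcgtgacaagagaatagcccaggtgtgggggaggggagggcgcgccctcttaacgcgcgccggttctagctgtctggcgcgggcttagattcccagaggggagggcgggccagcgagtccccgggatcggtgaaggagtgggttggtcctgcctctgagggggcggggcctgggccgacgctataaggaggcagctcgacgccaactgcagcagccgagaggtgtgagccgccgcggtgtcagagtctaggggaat

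E2F-type words were found in the promoters of 8 of 12 fork and licensing genes (66.7%) and of 1 of 12 G2/M genes (8.33%), against 2.61% of 27018 genes in the same table. The 8 were Mcm3, Mcm5, Mcm6, Mcm7, Rfc3, Pola1, Cdc6 and Cdt1, and the G2/M gene was Cdk1. Over all 16 replication members with an entry the share was 50%, and among other replication genes it was 10 of 34 (29.4%). Cdk2 and E2f2 were the carriers among 7 G1/S control genes. Mcm6 held 3 such words and Cdk1 a single one, at position -131 from its start. CHR words had the opposite distribution, with 9 of 12 G2/M genes (75%) and 3 of 12 fork genes (25%) against 21.7% of all genes. Among other G2/M genes 26 of 36 (72.2%) held a CHR word, and among other replication genes 6 of 34 (17.6%). The 9 were Aurka, Bub1, Ccnb2, Cdc20, Cdk1, Kif11, Mki67, Plk1 and Top2a, and Cdk1 had TTTGAA at positions -71 and -15. CCAAT was common in both, in 9 of 12 fork and 11 of 12 G2/M promoters against 41.1% of all genes. Pcna carried none of the E2F-type words and a single CCAAT, and the Cdkn1a window shown carried no word of any kind. The 4 nucleotide genes and 3 inhibitors had neither E2F-type nor CHR words. The second RefSeq entry of Cdkn1a, whose start lies 2790 bases from that of its leading transcript, held no word either. The Pcna window is placed on a RefSeq start 134 bases from that of its leading transcript in the annotation used for counting. These matches describe letters in the window and not binding, which was not measured here, and base composition differs between promoters.

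The libraries carried the markers of macrophages. All 10 macrophage markers reached 1 TPM (an abundance per transcript length, scaled to a fixed total) in every library, from Mrc1 at 20.6 ± 4.40 to Lyz2 at 2989 ± 197 TPM (SD, n = 3). None of 10 markers of cycling myeloid progenitors did so, and their summed level was 0.82, 0.92 and 0.55 TPM in replicates 1, 2 and 3. Of 8 neutrophil markers 2 did, S100a8 and S100a9, and their defining genes Ly6g and Retnlg had 0 counts in every library. The other exceptions were Tfrc (of 7 erythroid markers), which dividing cells and macrophages also express, and Cd79b (of 8 lymphocyte markers), while none of 7 fibroblast markers passed. Replicate 1 stood apart. Malat1, a nuclear noncoding RNA, was at 1333, 118 and 152 TPM in replicates 1, 2 and 3, and all 5 nuclear RNAs tested were highest in replicate 1. The share of TPM in protein-coding genes of the nuclear genome was 34.3%, 27.8% and 27.8%, so 1 TPM is a strict cutoff for them and a gene's TPM can be highest in replicate 1 while its share of counts is not. Levels are therefore given in TPM, and libraries are compared in CPM, counts relative to library size, after TMM normalization.

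Across the 47 genes, 31 reached 1 TPM in every library, where 41.4% of nuclear protein-coding genes did so. The count was 13 of 14 fork and licensing genes, 2 of 4 nucleotide genes, 8 of 11 G1/S control genes, 3 of 3 inhibitors and 5 of 15 G2/M genes. At 5 TPM the total was 14, and in the second deposited quantification it was 20. The share of all genes was not computed at that cutoff or in that quantification, so these totals have nothing to be set against. The median of the mean levels was 3.40 TPM for the 18 replication members, 5.61 for G1/S control, 6.14 for the inhibitors and 0.893 for G2/M, beside 5.27 TPM for the 12515 genes that passed the count filter. In bulk RNA, fewer cells of a kind and less RNA per cell cannot be told apart.

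**Figure D1:**
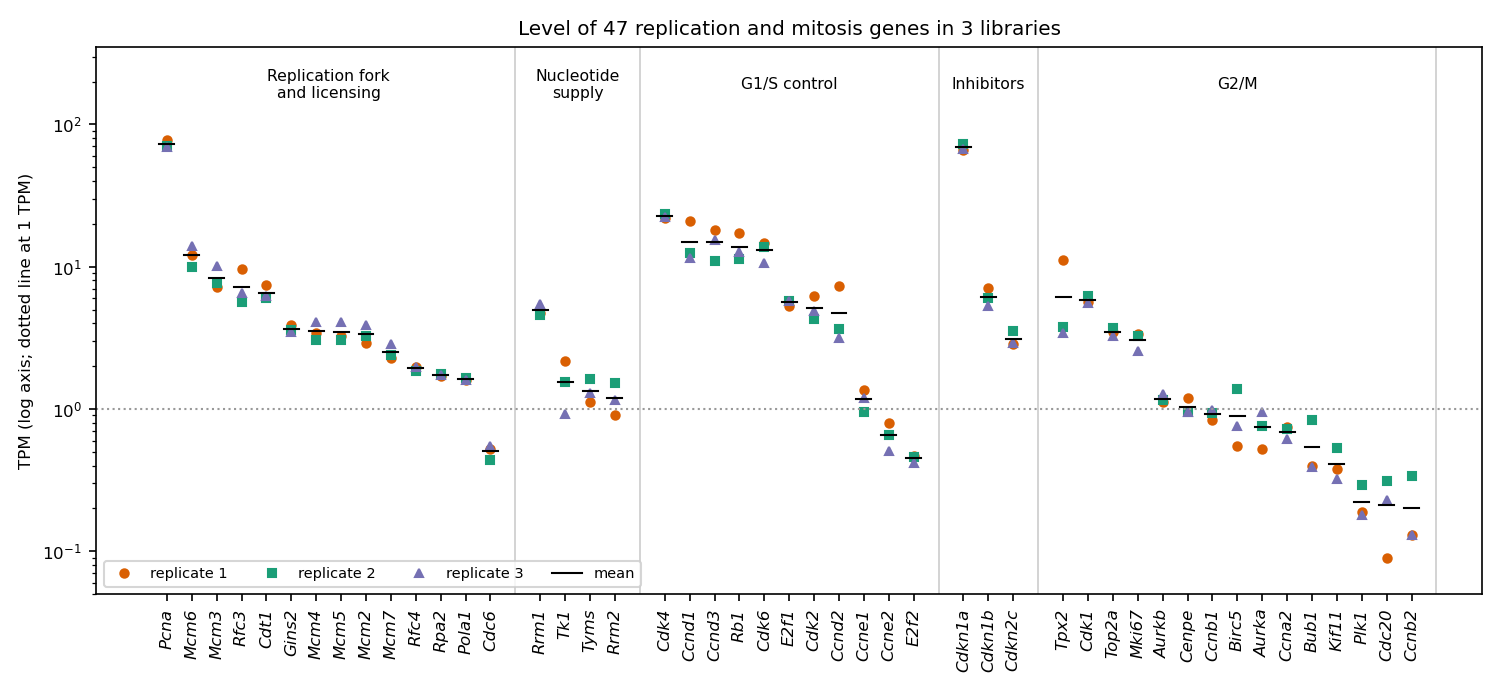
TPM on a log axis for the 47 genes, ordered by mean level within each role; symbols are the 3 libraries, bars their mean, and the dotted line marks 1 TPM. Pcna and Cdkn1a stand between 66.6 and 78.3 TPM in all libraries, and the means of 9 of 15 G2/M genes lie below the dotted line.

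Pcna, the sliding clamp that holds polymerases on DNA (ENSMUSG00000027342.14, mm10 chromosome 2, 132249162 to 132253314, minus strand), was the most abundant member. It stood at 78.3, 70.04 and 69.7 TPM in replicates 1, 2 and 3, a mean of 72.7 ± 4.86 TPM. Its promoter is the first of those printed above. The next fork gene, Mcm6, had 12.02, 10.02 and 14.07 TPM, so that the clamp exceeded every other fork gene in every library. Mcm6 (ENSMUSG00000026355.11, chromosome 1, 128331590 to 128359664) encodes a subunit of the MCM helicase, which unwinds DNA at the fork.

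The 6 helicase genes were unequal in level although their products form a ring with a single copy of each. Mcm3 followed Mcm6 at 7.15, 7.7 and 10.04 TPM. Its coding transcripts alone had 3.89, 4.19 and 5.42 TPM, and the remainder lay in retained-intron transcripts. Coding transcripts of Mcm4 had 3.4, 3.05 and 4.09 TPM, so much of the excess of Mcm3 in TPM lay in its retained-intron transcripts. By counts, 88.6 ± 0.342% of Mcm3 lay in coding transcripts. Mcm4, Mcm5 and Mcm2 had means of 3.51 ± 0.529, 3.46 ± 0.544 and 3.34 ± 0.488 TPM, which differ by less than their SD. Mcm7 was lowest at 2.27, 2.38 and 2.88 TPM, and its exons overlap those of Cops6 and Ap4m1 on the opposite strand. The strand setting of the counting was not found among the labels and headers, so reads of such pairs cannot be assigned with certainty. Exonic overlap with another annotated gene, on either strand, was present for 17 of the 47 members, Gins2, Rb1, Tk1 and Ccne2 included. For Top2a the only overlapping gene was a small nucleolar RNA on the same strand, and for Plk1 an opposite-strand gene, both with 0 counts. The share of all genes with such overlap was not computed.

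The remaining fork and licensing genes spanned 0.503 to 7.24 TPM on average. Rfc3, a subunit of the clamp loader, had 9.6, 5.63 and 6.48 TPM, and its partner subunit Rfc4 1.96, 1.84 and 1.98 TPM. Rfc4 overlaps the abundant Eif4a2 on the opposite strand. Cdt1 and Cdc6 together load the helicase at origins, and their levels were far apart, at 7.39, 6.06 and 6.19 TPM for Cdt1 and 0.52, 0.44 and 0.55 TPM for Cdc6. Cdc6 was the only fork or licensing gene under 1 TPM. Gins2, part of the active helicase, stood at 3.65 ± 0.198 TPM, Rpa2, which coats single-stranded DNA, at 1.73 ± 0.0208, and Pola1, the catalytic subunit of the priming polymerase, at 1.62 ± 0.0361 TPM.

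Nucleotide supply was led by Rrm1, the large subunit of ribonucleotide reductase, at 4.75, 4.6 and 5.46 TPM. Rrm2, its S-phase-restricted partner, had 0.9, 1.53 and 1.16 TPM. Rrm1 was above Rrm2 in every library. Thymidine kinase gene Tk1 had 2.17, 1.54 and 0.92 TPM, highest in replicate 1, and thymidylate synthase gene Tyms 1.11, 1.62 and 1.3 TPM.

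Among the genes of G1/S control, the kinase Cdk4 was highest at 22.03, 23.6 and 22.4 TPM and Cdk6 reached 14.7, 13.75 and 10.57 TPM. The D-type cyclins Ccnd1 and Ccnd3 had nearly the same mean, 14.9 ± 5.11 and 14.9 ± 3.64 TPM, with wide spread. Ccnd1 was at 20.8, 12.4 and 11.5 TPM, Ccnd3 at 18.2, 11.01 and 15.35 TPM and Ccnd2 at 7.26, 3.66 and 3.15 TPM, so all 3 had their highest TPM in replicate 1. Rb1, the substrate of these kinases and brake on E2F, stood at 17.2, 11.4 and 12.6 TPM. E2f1 had 5.3, 5.76 and 5.78 TPM and Cdk2 6.27, 4.27 and 4.85 TPM. The E-type cyclins and E2f2 were the lowest of this role, with means of 1.17 ± 0.207 for Ccne1, 0.657 ± 0.145 for Ccne2 and 0.45 ± 0.0265 TPM for E2f2. D-type cyclins thus stood above E-type cyclins in every library. Cdk4 overlaps Tspan31 and Ccnd1 overlaps LTO1 on the opposite strand, and 7 of these 11 genes had fractional counts, which mark reads shared between loci.

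Cdkn1a (ENSMUSG00000023067.14, chromosome 17, 29090976 to 29100727, plus strand), whose product p21 inhibits cyclin-dependent kinases and binds the Pcna clamp, was the second most abundant member. It had 66.6, 73.2 and 67.1 TPM, with a mean of 68.97 ± 3.69 TPM, and Pcna was above it in replicates 1 and 3 but not in replicate 2. Its level was 3.20, 5.90 and 4.37 times that of the highest cyclin among the members in replicates 1, 2 and 3, which was Ccnd1 in the first 2 and Ccnd3 in replicate 3. The p27 gene Cdkn1b was at 7.12, 5.98 and 5.31 TPM, and Cdkn2c, whose product p18 binds Cdk4 and Cdk6, at 2.84, 3.52 and 2.93 TPM. The 3 inhibitors kept this order in every library.

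G2/M genes were the lowest group. Only Tpx2, Cdk1, Top2a, Mki67 and Aurkb reached 1 TPM in every library. Cdk1, the mitotic kinase (ENSMUSG00000019942.13, chromosome 10, 69335146 to 69352938, minus strand), had 5.67, 6.19 and 5.52 TPM. Top2a, the topoisomerase that disentangles sister chromatids, had 3.45, 3.69 and 3.26 TPM, and the proliferation marker Mki67 3.37, 3.27 and 2.55 TPM. Aurkb, the kinase of the chromosomal passenger complex, had 1.11, 1.15 and 1.27 TPM.

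The other 10 G2/M genes had lower means than these 5, though Birc5 was above Aurkb in replicate 2 and Cenpe in replicate 1. The cyclins that activate Cdk1 had 0.693 ± 0.0737 (Ccna2), 0.917 ± 0.0709 (Ccnb1) and 0.2 ± 0.121 TPM (Ccnb2), all under Cdk1 in every library. Birc5, also of the passenger complex, was at 0.55, 1.37 and 0.76 TPM. The mitotic kinases Aurka, Bub1 and Plk1 had 0.743 ± 0.215, 0.543 ± 0.257 and 0.22 ± 0.0608 TPM, the spindle motor Kif11 0.41 ± 0.108 and the kinetochore motor Cenpe 1.03 ± 0.144 TPM. Cdc20, which starts anaphase by activating the anaphase-promoting complex, had 6, 38 and 37 counts, or 0.09, 0.31 and 0.23 TPM, too few to pass the count filter, and it overlaps Elovl1 on the opposite strand. Ccnb2 had 8, 42 and 17 counts, and its exact Poisson 95% intervals were 0.111 to 0.505 CPM in replicate 1 and 0.562 to 1.05 CPM in replicate 2, for counting error only.

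Replication members thus stood above G2/M members. Their median exceeded that of G2/M by 1.22, 1.07 and 1.26 on the log2(TPM + 1) scale in replicates 1, 2 and 3, a mean of 1.18 ± 0.0987. The groups overlapped: 11, 11 and 14 of 15 G2/M genes lay below the replication median, and 1, 1 and 2 of 18 replication genes lay below the G2/M median. The gap was 0.042 when only genes with a mean of at least 1 TPM were kept, a restriction that leaves 17 replication and 6 G2/M genes. Other genes of these pathways showed the same order. Of 42 other replication genes 33 reached 1 TPM in every library (median 3.25 TPM), led by the clamp loader genes Rfc2 and Rfc1 at 26.9 ± 5.55 and 14.5 ± 1.46, Pold4 at 14.6 ± 1.33 and Rpa1 at 12.6 ± 0.896 TPM, with the origin kinase Cdc7 and the origin recognition gene Orc1 lowest at 0.427 ± 0.0961 and 0.35 ± 0.271 TPM. Of 43 other G2/M genes 15 did (median 0.733 TPM). Securin gene Pttg1 at 37.4 ± 12.7, checkpoint gene Bub3 at 11.98 ± 0.261, Incenp at 10.6 ± 1.93 and the condensin gene Smc4 at 8.89 ± 1.59 TPM led them, and Aspm and Cdc25c were lowest at 0.0567 ± 0.0379 and 0.05 ± 0.0265 TPM. Among 26 other control genes 22 passed (median 3.995 TPM), with Gadd45b at 83.01 ± 27.6, Ccng1 at 46.7 ± 1.34, Btg1 at 14.5 ± 2.80 and the repressive E2f4 at 11.4 ± 0.516 TPM highest. The inhibitor Cdkn2b and the repressor E2f7 were lowest, at 0.12 ± 0.0608 and 0.117 ± 0.0208 TPM.

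Differences between the libraries were tested per gene by a chi-square test of counts against a single rate, adjusted by Benjamini-Hochberg over all 12515 genes. Of the 46 members tested 36 varied beyond counting error, against 71.5% of all genes tested. The 10 that did not pass were Cdt1, Cdc6, Rfc4, Rpa2, Gins2, Tyms, Ccne1, E2f2, Ccnb1 and Cenpe. Without replicate 1 the count was 23 of 47, with 40.4% of all genes. The test asks about these libraries alone, and with so many genes passing, the size of a difference says more than its p. The biological coefficient of variation (BCV) estimates the spread of a gene between libraries beyond counting error, and is moderated across genes. Its median was 0.211 for replication and 0.336 for G2/M members, beside 0.172 for all genes tested. It ranged from 0.120 for Mki67 to 0.470 for Ccnb2, the tested member with the fewest counts. Cdc6 and Tyms, also with few counts, had BCVs of 0.312 and 0.317 although they did not pass the test. Group differences in BCV were therefore not separated from differences in level.

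The 6 helicase genes all had their highest CPM in replicate 3. Mcm6 was at 47.4, 47.1 and 68.4 CPM in replicates 1, 2 and 3 (chi-square on edgeR-normalized counts, adjusted p = 1.11e-59), and Mcm3 at 18.03, 23.2 and 30.9 CPM (adjusted p = 7.76e-32). Mcm2 had 13.005, 17.7 and 21.9 CPM, Mcm4 16.8, 17.8 and 24.6 CPM, Mcm5 11.6, 13.5 and 19.5 CPM and Mcm7 6.73, 9.22 and 12.1 CPM. Highest over lowest was 1.45-fold for Mcm6 and up to 1.80-fold for Mcm7. Replicate 1 was lowest for all but Mcm6, whose lowest was replicate 2.

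This order extended over the fork and licensing genes, of which 13 of 14 were highest in replicate 3, where 27.7% of all tested genes were. Rfc3 was the exception, highest in replicate 1 at 12.1 CPM against 8.51 and 9.52 CPM. For several the differences were small. Pcna had 147, 157 and 160.5 CPM, 1.10-fold from lowest to highest, although its TPM was highest in replicate 1. Cdt1, Gins2, Rfc4, Rpa2 and Cdc6 did not pass the test. Without replicate 1, all 14 were higher in replicate 3 than in replicate 2 (51.8% of all genes). Among the 42 other replication genes 26 were highest in replicate 3, and 34 were higher there than in replicate 2. The test for variation was passed by 22 of these 42 (52.4%), by 24 of 42 other G2/M genes (57.1%) and by 16 of 24 other control genes (66.7%), all below the 71.5% of all genes tested.

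**Figure D2:**
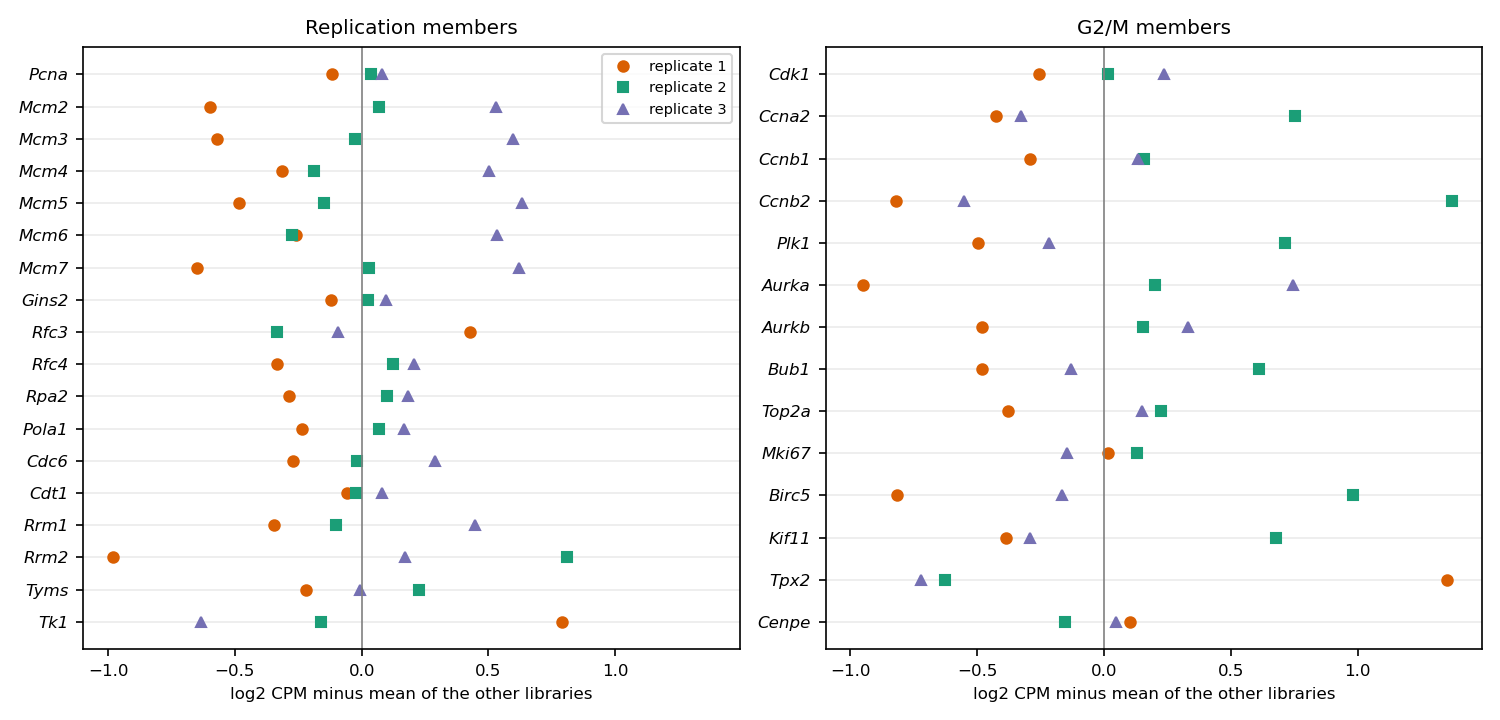
For each replication member (left) and each of the 14 tested G2/M members (right), the log2 CPM of each library minus the mean of the other libraries; symbols are replicates 1, 2 and 3. Helicase genes lie to the right in replicate 3, and Ccnb2, Birc5, Ccna2, Plk1, Kif11 and Bub1 in replicate 2, while Tpx2 is at 1.35 in replicate 1.

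G2/M genes had a different order. Of the 14 tested 9 were highest in replicate 2, where 32.6% of all tested genes were, and 11 were lowest in replicate 1, against 42.3%. Ccnb2 was at 0.256, 0.780 and 0.296 CPM, 3.05-fold from lowest to highest (chi-square on edgeR-normalized counts, adjusted p = 0.000274). Birc5 had 0.737, 1.75 and 1.01 CPM (adjusted p = 8.80e-05), Ccna2 1.79, 3.12 and 1.88 CPM (adjusted p = 1.93e-05) and Kif11 2.56, 4.22 and 2.68 CPM (adjusted p = 5.63e-06). Bub1 and Plk1 followed the same order at 1.89, 3.16 and 2.23 CPM and at 0.545, 0.985 and 0.626 CPM. Ccna2 overlaps Exosc9 on the opposite strand.

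Not all G2/M genes did so. Aurka (1.249, 2.16 and 2.78 CPM), Aurkb (2.50, 3.36 and 3.65 CPM) and Cdk1 (6.09, 6.91 and 7.66 CPM) were highest in replicate 3. Ccnb1 and Top2a differed little between replicates 2 and 3, at 3.36 and 3.32 CPM and at 21.1 and 20.4 CPM. Mki67 was highest in replicate 2 by a small margin, at 48.9, 51.5 and 45.4 CPM in replicates 1, 2 and 3. Cenpe was lowest in replicate 2, at 13.6, 12.1 and 13.2 CPM. Without replicate 1, 10 of 14 were higher in replicate 2 than in replicate 3 (48.2% of all genes), and so were 27 of the 42 other G2/M genes tested. Of those 42, 25 were highest in replicate 2 of all libraries. Rrm2, of the replication members, was also highest in replicate 2, at 2.24, 5.18 and 3.85 CPM (chi-square on edgeR-normalized counts, adjusted p = 1.24e-09). Of all 46 members tested 17 were highest there, against 32.6% of all genes tested. They included 4 of 11 G1/S control genes, 2 of 3 inhibitors and 2 of 4 nucleotide genes, so a peak in replicate 2 was not particular to G2/M genes. In TPM, the summed neutrophil markers were highest in replicate 3 (8.24, 7.56 and 11.77 TPM). Of the 8, only S100a8 and S100a9 reached 1 TPM in every library. The median of the 8 was 0.155, 0.05 and 0.13 TPM, highest in replicate 1. The summed progenitor markers had 0.82, 0.92 and 0.55 TPM, and only 1 of the 10 passed the count filter, too little to compare libraries. The part of such cells in these orders was not tested.

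**Figure D3:**
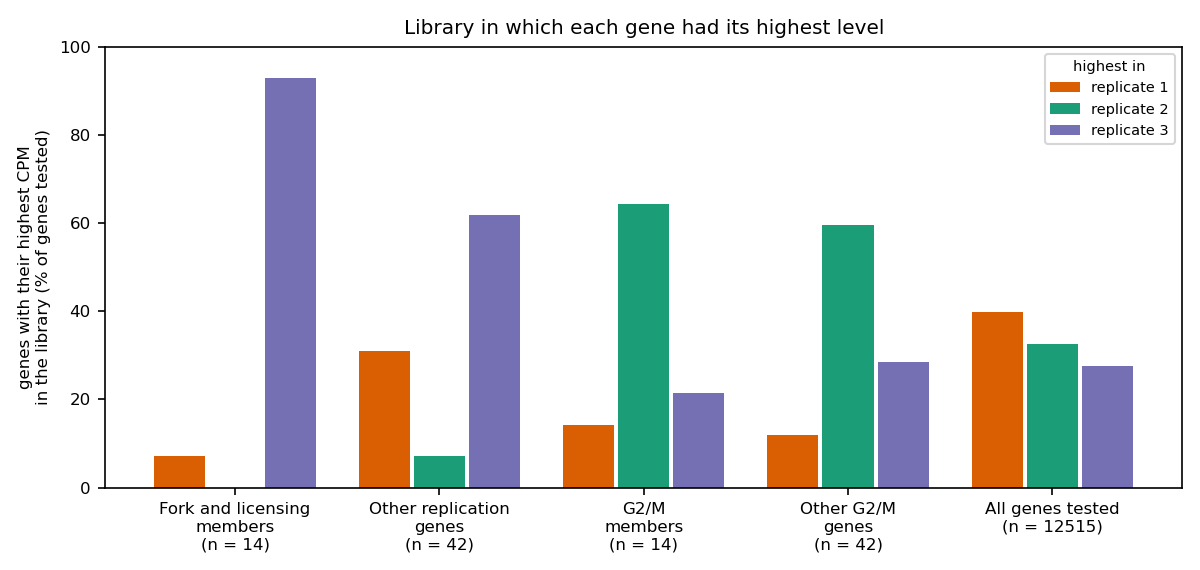
Share of genes, in percent of those tested, with their highest CPM in replicate 1, 2 or 3, for fork and licensing members (13 of 14 in replicate 3), other replication genes, G2/M members (9 of 14 in replicate 2), other G2/M genes and all 12515 genes tested. Bars start at 0 and the number of genes is under each group.

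Of the 46 members tested 8 were highest in replicate 1, the library rich in nuclear RNA, against 39.8% of all genes, and the part of that RNA in their levels was not tested. Tpx2, a spindle assembly factor that activates Aurka (ENSMUSG00000027469.16, chromosome 2, 152847964 to 152895321, plus strand), was at 54.2, 21.7 and 20.8 CPM, or 11.2, 3.74 and 3.42 TPM (chi-square on edgeR-normalized counts, adjusted p = 7.09e-202). By gene TPM it headed the G2/M genes through this library, and in replicates 2 and 3 it stood below Cdk1. Counting coding transcripts alone, Tpx2 had 11.07, 3.68 and 3.42 TPM and Cdk1 3.17, 3 and 3.36 TPM. On that measure Tpx2 was above Cdk1 in every library. The leading transcript of Tpx2, Tpx2-202, is protein coding. Ccnd2 had 62.2, 36.8 and 33.6 CPM, Ccnd1 103.9, 74.3 and 71.4 CPM and Tk1 3.97, 2.55 and 2.04 CPM, all highest in replicate 1. Ccnd3 was instead highest in replicate 3 at 42.7, 30.8 and 46.2 CPM. Cdkn1a was lowest in replicate 1, at 162, 213 and 199.9 CPM, and Cdkn1b differed by 1.17-fold between its highest and lowest library. The median departure of replicate 1 from the mean of the others was -0.28 log2 CPM for replication members and -0.41 for G2/M members, beside -0.014 for all genes tested. Against replicate 2 alone it was -0.18 and -0.56, and against replicate 3 alone -0.37 and -0.21.

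Transcript tables showed which RNA of each gene was present. For 46 of the 47 genes the leading transcript, the one with the highest mean TPM, was annotated as protein coding, and in 36 genes over 90% of the gene's TPM lay in protein-coding transcripts. These shares were not computed for genes outside the list, so they do not set the members apart. Tyms was the gene without a coding leading transcript. Its leading transcript was Tyms-205, a target of nonsense-mediated decay of 618 bases, at 60.9 ± 7.09% of the gene's TPM. By expected counts the coding Tyms-201 was ahead of it in every library, and coding transcripts held 52.7 ± 4.51% of the gene's counts. In the second quantification the count was also 46 of 47: Tyms was led there by Tyms-201, and Cdk1 by the retained-intron transcript Cdk1-204.

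Short noncoding transcripts weigh heavily in TPM because the level is per length, and a share of TPM can rest on few reads. Mcm3 had 54.3 ± 0.206% of its TPM in protein-coding transcripts, with the remainder in retained-intron transcripts, but 88.6 ± 0.342% of its counts in coding ones. Cdk1 had 55.1 ± 6.13% of its TPM and 84.98 ± 3.62% of its counts in coding transcripts, and most of its other TPM lay in Cdk1-204, a retained-intron transcript of 475 bases. Rfc3 had 69.2 ± 2.10% of TPM and 88.7 ± 2.36% of counts, and Top2a 61.4 ± 3.96% and 93.05 ± 1.41%. The shares of Mcm3 and Rfc3 were close in all libraries. Those of Ccna2 (44.4%, 87.1% and 49.6% of TPM) and Tk1 (46.85%, 54.01% and 86.1%) were not. Counting the TPM of coding transcripts alone, 29 of 47 members reached 1 TPM in every library, and the share of all genes on that measure was not computed.

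**Figure D4:**
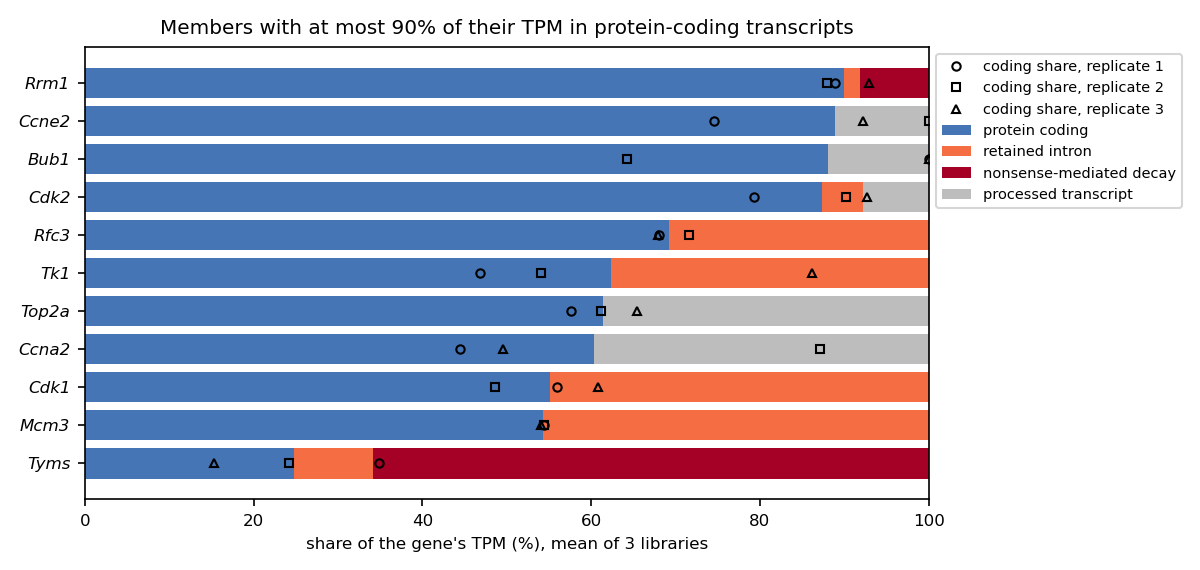
Members with at most 90% of their TPM in protein-coding transcripts: stacked bars give the mean share of each annotated transcript class over 3 libraries in percent, and open symbols the coding share in each library. Mcm3 and Rfc3 have close symbols, Ccna2 and Tk1 spread ones, and Tyms lies lowest.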

How the data were processed

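Cytosolic, ribosomal-RNA-depleted total RNA of a single group of macrophages was sequenced in 3 libraries. Labels give 1 µg of starting RNA and inserts of 250 to 400 bases. The authors deposited expected counts and TPM per gene and per transcript, and each transcript's percent of its gene's TPM, in columns that RSEM writes, per the file headers. A second table of estimated counts and TPM has kallisto's column names. The submitters' processing notes give assembly mm10 and genome annotation M21. The sources used here do not give tool versions or the strand setting.

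Entries naming no gene (0.435%, 0.134% and 0.0823% of counts in replicates 1, 2 and 3) were left out. Expected counts were rounded for edgeR 4.0.16 in R 4.3.3 (filterByExpr, TMM, intercept-only dispersion fit, prior count 2). A quasi-likelihood contrast needs groups, so each gene was tested by a chi-square test between libraries, with a Benjamini-Hochberg threshold of 0.05. The test was tried on simulated Poisson counts for variation between the 3 libraries (12515 genes). It recovered 69% of 1.25-fold and 88% of 2-fold changes and called 0.0406% of unchanged genes. Unchanged genes were simulated with counting error only, so these rates do not hold for libraries that also differ in other ways. DESeq2 1.42.0 size factors were an alternative.

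Members and lists were chosen with earlier results of these data known. All 47 members may be named, and from other lists the 4 highest and 2 lowest by mean TPM, or every gene of lists of 10 or fewer. The orders of the libraries for the fork, G2/M and other lists were chosen for description after their values were seen.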

Additional observations from a re-analysis of the deposited data

How the results depend on the processing

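Alternatives were run for 14 summary values (detection, group medians and their gap, variation, replicate 1 departures, leading transcripts and the libraries in which groups were highest). Of these, only the gap and the replicate 1 departures could change sign, and they did not. The gap moved by more than its SD between libraries in 4 of 7 alternatives. Levels of single genes, BCVs, promoter words and transcript shares were not rerun. Members at 1 TPM in every library numbered 31, and 14 at 5 TPM, 20 in the second quantification, and 40, 45 and 44 at 0.5 TPM, at 10 expected counts and after rescaling to nuclear protein-coding genes. For these alternatives the share of all genes was not computed. That rescaling raised the medians to 11.5 (replication), 3.09 (G2/M), 19.0 (G1/S control) and 20.5 TPM (inhibitors) by construction, and the second quantification gave 1.37, 0.443, 2.48 and 2.94 TPM, for which the cause was not tested. Leaving out a library gave a G2/M median of 0.735 to 0.95 TPM. The gap between replication and G2/M medians was 1.79 with a pseudocount of 0.1, 0.042 with members of at least 1 TPM only, 1.60 after rescaling and 0.75 in the second quantification. Members varying beyond counting error were 23 to 29 with a library left out, which leaves fewer samples, and 36 to 39 otherwise. The replicate 1 departure ranged from -0.37 to -0.18 (replication) and from -0.56 to -0.21 (G2/M) with another library left out. The counts of fork, G2/M and other pathway genes highest in a library stayed within 1.5 times, under alternatives chosen after seeing the data. Leaving out replicate 1 changes the question to which remaining library is higher. The share of all genes then rose from 27.7% to 51.8% for replicate 3 and from 32.6% to 48.2% for replicate 2. That alternative therefore cannot show whether the counts were stable. Genes with few counts, such as Ccnb2 and Cdc20, are limited by depth. No paired analysis was possible because the labels give a single group.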
